A study of Mus musculus with 45 samples.

Results

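Respiratory chain and ATP synthase subunits were followed at the RNA level in epithelium taken from the colon of young male C57BL/6 mice (C57BL/6J in the methods of the study). The genes were the rows of the count table whose symbol begins with Nduf followed by a, b, c, s or v and a digit, with Uqcr, with Cox and a digit from 4 to 8, or with Atp5, together with Sdha, Sdhb, Sdhc and Sdhd. There were 84 such rows among 24918. Of these, 35 belonged to complex I, 4 to complex II, 8 to complex III, 20 to complex IV and 15 to complex V, counting Ndufa4 and Ndufa4l2 with complex IV and Cox7a2l as a factor that binds it. The other 2 rows, Atp5s and Atp5sl, share the name but are not subunits of the mature enzyme.

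The study had 45 samples, of which 15 were the RNA-seq libraries used here, from 5 control, 5 obese and 5 formerly obese mice. Control mice (LF) were fed from 6 weeks of age for 20 weeks on a low-fat diet, in which fat gave 10% of the energy. For obese mice (HF) fat gave 60% over the same 20 weeks. Formerly obese mice (HFLF) were kept on the high-fat food over 15 weeks and were switched to the low-fat food for the last 5. All 3 groups were of 1 strain and sex and carried no engineered allele. The libraries held 15230391 to 22762095 gene counts each, and those of formerly obese mice were larger than those of control mice (exact two-sided permutation p = 0.0159) and of obese mice (p = 0.0317, exact). In each library the 84 rows together took between 2.09% and 2.45% of the counts.

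Complexes I to IV pass electrons from NADH and succinate to oxygen and build a proton gradient across the inner mitochondrial membrane, and complex V, the ATP synthase, uses that gradient to make ATP. Complex II, succinate dehydrogenase, is also an enzyme of the citric acid cycle and is the only one of the 5 built from nuclear genes alone. The other 4 also need subunits made from mitochondrial DNA, and genes of mitochondrial DNA were not analysed here. Colonocytes are known for oxidising butyrate in their mitochondria. Many nuclear subunit genes are known to carry sites for the factors NRF1, GABPA (an ETS protein) and YY1 near their starts.

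To show what such starts look like, 3 promoters with no other annotated gene in the window are printed, each the 200 bases before the annotated start (RefSeq, GRCm38.p6). Capitals mark a match, on either strand, to the NRF1 core GCGCATGC or to the ETS core CCGGAAG, and overlapping matches run together. Cox6a1 lies at chr5:115348959-115349158 on the minus strand and held both, Sdhb lies at chr4:140961071-140961270 on the plus strand and held the NRF1 core, and Ndufb7 lies at chr8:83566558-83566757 on the plus strand and held the ETS core.
Cox6a1: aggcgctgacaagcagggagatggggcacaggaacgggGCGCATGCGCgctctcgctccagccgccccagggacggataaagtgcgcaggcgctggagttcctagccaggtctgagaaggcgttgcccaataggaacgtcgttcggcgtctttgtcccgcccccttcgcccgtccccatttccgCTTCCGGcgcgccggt
Sdhb: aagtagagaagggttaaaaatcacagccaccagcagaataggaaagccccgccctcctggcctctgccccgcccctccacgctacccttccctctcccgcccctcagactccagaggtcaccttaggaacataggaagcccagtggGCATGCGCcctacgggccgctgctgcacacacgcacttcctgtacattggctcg
Ndufb7: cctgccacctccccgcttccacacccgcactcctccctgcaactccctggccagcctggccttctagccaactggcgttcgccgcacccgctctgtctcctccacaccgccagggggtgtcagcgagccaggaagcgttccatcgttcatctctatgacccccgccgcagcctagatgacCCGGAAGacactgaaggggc

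The RefSeq table held 75 promoters for 69 of the 84 genes, each spanning 250 bases before to 50 after a start. The NRF1 core was found in 10 of them (13.3%), against 2.71% of all 32851 promoters in the table. The ETS core was found in 16 (21.3%), against 8.86%, and the YY1 core AAGATGGCG in 9 (12%), against 1.4%. The NRF1 and ETS cores were both found in Cox6a1, Sdhb, Atp5k, Atp5l and Uqcr11. These counts describe letters in a window and were not tested. A protein-coding gene starting in the opposite direction within 1 kb upstream was annotated for 24 of the 84 genes (28.6%), against 10.7% of all tested genes. Examples were Ndufs1 and Eef1b2, a translation elongation factor, with 9 bases between their starts, Ndufa7 and Rps28, a ribosomal protein, with 10, Ndufs6 and Mrpl36 with 21, and Sdhd and Timm8b with 52.

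A second kind of sequence bears on what the counts can show, since many subunit genes have processed copies elsewhere in the genome. The first stretch is 60 coding bases of Ndufs5, a complex I subunit, at chr4:123716020-123716079 on the minus strand, which the genome holds again, base for base, at chr16:42955631-42955690 in the annotated pseudogene Ndufs5-ps. The second is 60 coding bases of Atp5g2, a gene for subunit c of the ATP synthase, at chr15:102663035-102663094 on the minus strand. At least 3 other places hold these bases exactly, among them chr7:23946813-23946872 in the pseudogene Gm10175.
Ndufs5: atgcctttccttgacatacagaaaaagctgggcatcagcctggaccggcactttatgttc
Atp5g2: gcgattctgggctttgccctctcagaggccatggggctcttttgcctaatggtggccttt

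A read of 50 bases from either stretch fits more than 1 place. Over its whole transcript, 87.2% of the 32-base windows of Ndufs5 and 100% of those of Atp5g2 also occurred outside the gene. Ndufs5 had 0 counts in all 15 libraries. Atp5g2 had 22 to 56 counts per library. The 7 subunit genes with more than 80% of their windows repeated were Ndufs5, Atp5g2, Ndufb4, Atp5l, Atp5g1, Cox7c and Atp5h, and their median level in control mice was 36.1 CPM per kb of transcript. CPM are counts scaled to a common library total. The median was 172 CPM per kb over the 28 subunit genes with no repeated window and 270 over the 47 in between. The part of repeated sequence in these low levels was not tested, and levels of these 7 genes are uncertain.

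**Figure D1:**
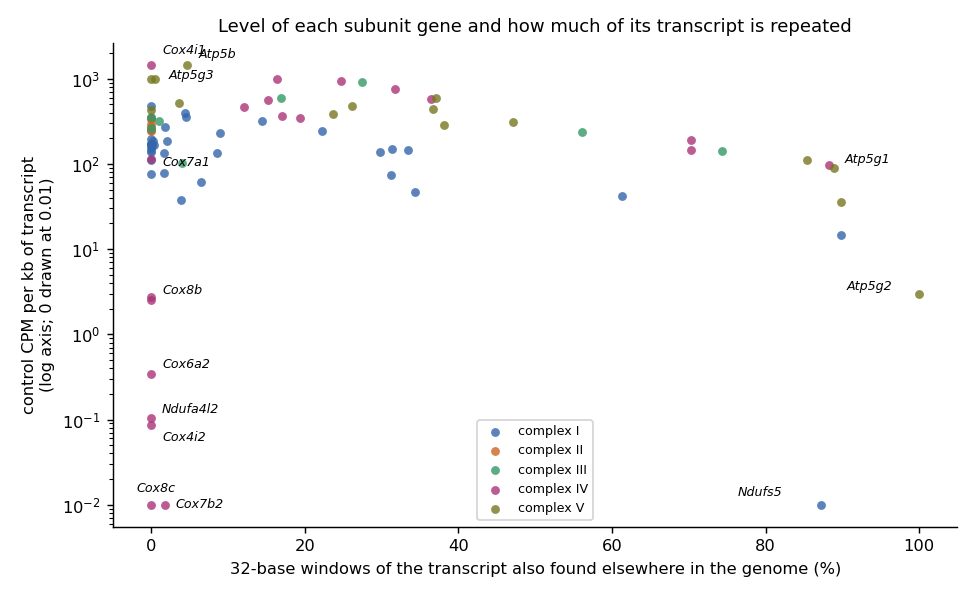
Each point is 1 of the 82 subunit genes, by the share of 32-base windows of its transcript that also occur elsewhere in the genome (x axis, %) and its mean level in the 5 control libraries (y axis, CPM per kb, log scale, 0 drawn at 0.01). Ndufs5 stands at 0 with 87.2% of its windows repeated and Atp5g2 at 2.98 with 100%, while Cox8c, Cox7b2, Cox4i2, Ndufa4l2 and Cox6a2 lie low with almost no repeated window.

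Levels between genes, compared per kb of transcript in control mice, differed between complexes. The medians over tested genes were 163 CPM per kb for complex I, 285 for complex II, 293 for complex III, 364 for complex IV and 434 for complex V. The 4 subunits of complex II lay within a narrow range, with Sdhc at 247 ± 19.1 (SD, n = 5), Sdha, which carries the flavin, at 274 ± 14.9, Sdhb, the iron-sulfur subunit, at 297 ± 33.9 and Sdhd, a membrane anchor, at 340 ± 25.1 CPM per kb. Neighbours in this order overlapped within 1 SD of each mean. The highest of each other complex were Ndufb9 (481 ± 48.9), Uqcrh (911 ± 70.8), Cox4i1 (1461 ± 117) and Atp5b, the catalytic beta subunit of the ATP synthase (1442 ± 101). Cox4i1 and Atp5b overlapped within 1 SD as well.

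Of paralogs with tissue-restricted forms, the widely expressed form carried almost all counts. Cox6b1 was at 999 ± 109 CPM per kb in control mice against 2.74 ± 0.297 for Cox6b2, the testis form. Cox8a was at 750 ± 96.8 against 2.54 ± 0.701 for Cox8b, known from muscle and brown fat. Cox6a2, the heart and muscle form, had 1 to 7 counts per library beside 939 ± 124 CPM per kb for Cox6a1. Cox4i2, known from lung, had 0 to 3 counts, Ndufa4l2 had 0 to 5, Cox8c had 0 to 1 and Cox7b2 had 0 in every library, which allows up to 3 counts in each. These 5 genes and Ndufs5 did not pass the filter on low counts and were not tested. Cox7a1 departed from this pattern.

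Cox7a1 is known as the heart and muscle form of its subunit, and in control mice it stood at 113 ± 21.2 CPM per kb beside 462 ± 43.1 for Cox7a2. Its CPM were 32.9, 45.4, 34.8, 51.8 and 42.6 in control replicates 1 to 5, 35.0, 43.3, 42.7, 38.9 and 44.9 in obese replicates and 42.4, 39.4, 43.6, 44.0 and 44.2 in formerly obese replicates. The 3 groups overlapped. The smooth muscle markers Myh11, Acta2, Des, Tagln, Actg2 and Cnn1 had at most 15 counts in any library, and no window of Cox7a1 was repeated elsewhere. Of the 3 genes for subunit c, Atp5g3 was at 1006 ± 109, Atp5g1 at 88.5 ± 16.1 and Atp5g2 at 2.98 ± 0.736 CPM per kb in control mice. The latter pair are those with 88.9% and 100% of windows repeated.

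Control replicate 4 stood apart before any group was compared. It was the highest of the 5 control libraries for 68 of the 78 tested genes, and control replicate 3 was the lowest for 55. The mean log2 CPM of the 78 genes, relative to the control mean, was -0.07, 0.03, -0.13, 0.17 and -0.0043 in control replicates 1 to 5. It was -0.04, 0.05, -0.09, 0.01 and 0.01 in the obese replicates, and -0.03, -0.07, -0.05, -0.09 and -0.11 in the formerly obese replicates. All groups overlapped, and the control mice alone spanned the values of the other groups. The SD was 0.11 over control libraries, 0.05 over obese and 0.03 over formerly obese libraries (n = 5 each). Over all tested genes, control replicate 4 also had the most negative trend on transcript length, with a log2 deviation of -0.06 per doubling of length against -0.02 to 0.02 in the other 14 libraries. The subunit transcripts are short, with a median of 729 bases against 2884 over all tested genes. The part of this trend in the high level was not tested, and for comparisons with control mice the medians, the counts at unadjusted p under 0.05 and the genes named for their p are given also without this library.

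**Figure D2:**
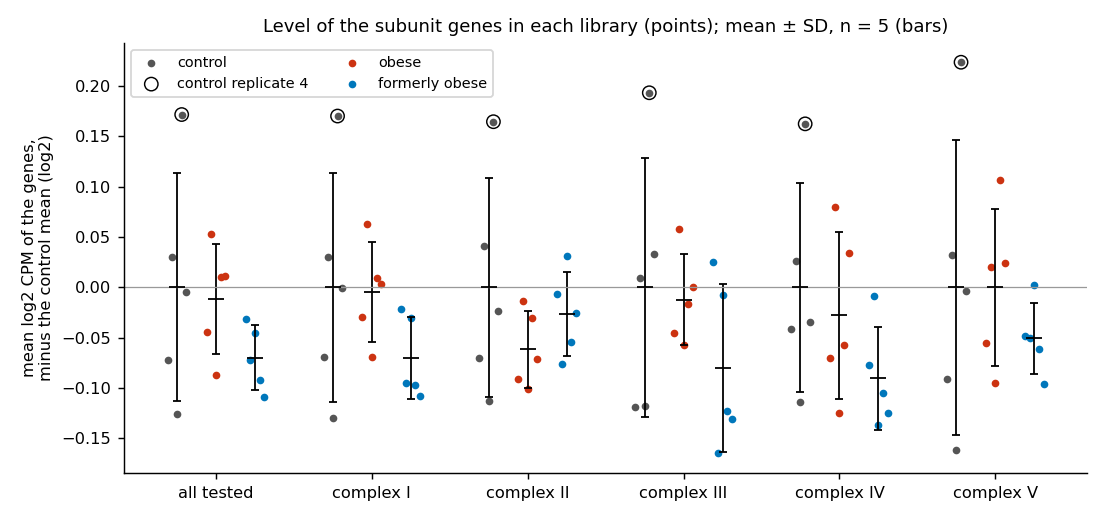
Mean log2 CPM of the tested genes in each of the 15 libraries, minus the control mean (y axis, log2), for all 78 and for each complex; horizontal marks and bars are mean ± SD (n = 5) and the open circle marks control replicate 4. Control replicate 4 is 0.17 above the control mean over all genes and is the highest control library for every complex.

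Comparing obese with control mice, the expression of the chain was close to even. None of the 78 tested genes passed the cutoffs of the study (a fold change over 1.2, p under 0.01 and adjusted p under 0.25), against 1.58% of all 12961 genes tested. At adjusted p under 0.05 there were also 0 (background 0.123%), and at adjusted p under 0.25 there were 0 (background 2.54%). At unadjusted p under 0.05 (edgeR), 4 genes were lower, or 5.13% against 5.85% of all genes, and 0 were higher, against 5.01%. By edgeR the median log2 fold change was -0.02, with 28 values positive and 50 negative, beside 0.0002 over all genes. Without control replicate 4 it was 0.03, with 52 positive and 26 negative, so the direction rested on that library, and the medians of complexes I, III, IV and V turned positive as well. Without that library, 5 genes were higher and 1 was lower at unadjusted p under 0.05 (edgeR), beside 5.94% and 6.49% of all genes. For 67 of the 78 genes (85.9%) the 95% interval of the fold change lay within 1.2-fold in both directions, against 51.9% of all genes. The 78 genes also had a higher median level, 167 CPM against 29.5 over all tested genes, and a smaller median SE, 0.06 against 0.08. This share alone therefore does not show that they were steadier than other genes.

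The gene with the smallest p in this comparison was Cox7a2l, counted here as a factor that binds complex IV. Its CPM were 217, 212, 194, 209 and 211 in control mice and 176, 211, 162, 191 and 187 in obese mice. Obese replicate 2 lay within the control range and the other obese mice lay below it. The log2 fold change was -0.17 ± 0.06 (SE; edgeR adjusted p = 0.337), and again -0.17 without control replicate 4 (adjusted p = 0.317, edgeR). In formerly obese mice Cox7a2l had 202, 190, 171, 171 and 190 CPM, with a log2 fold change of -0.17 ± 0.06 against the same control libraries (adjusted p = 0.168, edgeR), and -0.17 without control replicate 4 (adjusted p = 0.166, edgeR). Of its windows, 70.3% were repeated elsewhere.

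In complex II every subunit had a negative value in obese mice with all libraries. The log2 fold changes were -0.05 for Sdha, -0.07 for Sdhb, -0.10 for Sdhc and -0.03 for Sdhd, and the smallest adjusted p was 0.44 (edgeR). Their median was -0.06, and -0.02 without control replicate 4. Without that library the values were -0.02, -0.01, -0.06 and 0.01 in the same order, so that Sdhd was positive. Sdhc varied least, with 271, 272, 268, 272 and 271 CPM in obese mice beside 272, 305, 267, 322 and 288 in control mice (adjusted p = 0.44, edgeR). Both sets overlapped. Of complex III, Uqcrh, the hinge protein, had a log2 fold change of -0.13 ± 0.05 (adjusted p = 0.401, edgeR) and Uqcrb of -0.12 ± 0.06 (adjusted p = 0.452, edgeR). Without control replicate 4 they were -0.09 and -0.10. On the positive side no gene reached an unadjusted p of 0.05 with all libraries, and the smallest p in that direction was that of Ndufb7, with 0.10 ± 0.06 (adjusted p = 0.575, edgeR) and with 0.17 ± 0.05 without control replicate 4 (adjusted p = 0.17, edgeR). Next were Cox7c, with 0.12 ± 0.08 (adjusted p = 0.596, edgeR), and Atp5k, with 0.09 ± 0.06 (adjusted p = 0.601, edgeR). Without control replicate 4 Cox7c had 0.16 (adjusted p = 0.426, edgeR) and Atp5k 0.13 (adjusted p = 0.258, edgeR). The 5 genes Ndufa3, Ndufa4, Ndufa8, Ndufa12 and Atp5g1 are reported by the study as upregulated in aged obese mice, an age not covered here. In these young mice they had log2 fold changes of -0.06, 0.04, 0.01, 0.01 and -0.05, and the smallest adjusted p among them was 0.776 (edgeR). Without control replicate 4 the values were -0.003, 0.08, 0.07, 0.06 and 0.07, with a smallest adjusted p of 0.476 (edgeR).

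Comparing formerly obese with control mice, most subunit genes had small negative values. None of the 78 passed the cutoffs of the study, against 3.72% of all genes. At adjusted p under 0.05 there was 1 gene, Ndufa7 (1.28% against a background of 2.18%), and at adjusted p under 0.25 there were 3, all lower (3.85% against 13.6%). At unadjusted p under 0.05, 5 genes were lower (6.41% against 8.63%) and 0 were higher (background 8.1%). The median log2 fold change was -0.06, with 12 values positive and 66 negative, beside -0.0006 over all genes. Without control replicate 4 the median was -0.0096, with 35 positive and 43 negative, and 1 gene was higher and 3 were lower at unadjusted p under 0.05 (edgeR), beside 9.71% and 10% of all genes. Without control replicate 3 the median was -0.09, and 19 genes had an adjusted p under 0.25 (24.4% against 14.7% of all genes). For 61 of the 78 (78.2%) the 95% interval stayed within 1.2-fold, against 48.2% of all genes, whose median SE was larger.

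Ndufa7, an accessory subunit of complex I, was the gene that passed at adjusted p under 0.05. Its CPM were 126, 133, 117, 138 and 135 in control mice, 123, 137, 118, 123 and 129 in obese mice and 122, 110, 109, 113 and 107 in formerly obese mice. Formerly obese replicate 1 lay within the range of the other groups, and the remaining 4 formerly obese mice lay below every control and every obese mouse. The log2 fold change against control mice was -0.21 ± 0.05 (adjusted p = 0.0453, edgeR), a fold change of 0.863 that is smaller than the 1.2-fold cutoff. Over the 24 alternatives it ranged from -0.25 to -0.17, with adjusted p from 0.0118 to 0.116, and without control replicate 4 it was -0.19 (adjusted p = 0.0598, edgeR). The gene lies on chromosome 17 at 33824572 to 33838316, plus strand, 10 bases from the start of Rps28 on the other strand.

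The 2 further genes at adjusted p under 0.25 were Cox7a2l, given above, and Ndufb11, an X-linked accessory subunit of the complex I membrane arm. Ndufb11 had 125, 127, 110, 138 and 130 CPM in control mice and 122, 112, 113, 110 and 115 in formerly obese mice, and the groups overlapped. Its log2 fold change was -0.15 ± 0.05 (adjusted p = 0.155, edgeR), and -0.11 without control replicate 4 (adjusted p = 0.228, edgeR). Its transcript shares 263 exonic bases with Rbm10 on the other strand, and the strand setting of the counting is not given in the sources used here. Within complex I, the 27 tested accessory subunits had a median log2 fold change of -0.10, with 25 negative, and the 7 core subunits, which carry the redox centres, had a median of -0.04 with 6 negative. The 5 tested genes of the F1 head of the ATP synthase were all negative, from -0.12 to -0.02, and the 4 of complex II ran from -0.05 to -0.01. Without control replicate 4 the median of complex I was -0.02 and that of complex II was 0.01. Cox8b had the most negative value of all, -0.51 ± 0.42 (adjusted p = 0.574, edgeR), from 3 to 21 counts per library in these 10 mice. Atp5s and Atp5sl, which are no subunits, had -0.13 and -0.08. The positive values of smallest p were those of Atp5k (0.06 ± 0.06), Ndufs1 (0.02 ± 0.05) and Cox7a1 (0.04 ± 0.10). Their adjusted p were 0.607, 0.839 and 0.879 (edgeR). Without control replicate 4 they had 0.11, 0.05 and 0.13, with adjusted p of 0.215, 0.55 and 0.441 (edgeR).

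**Figure D3:**
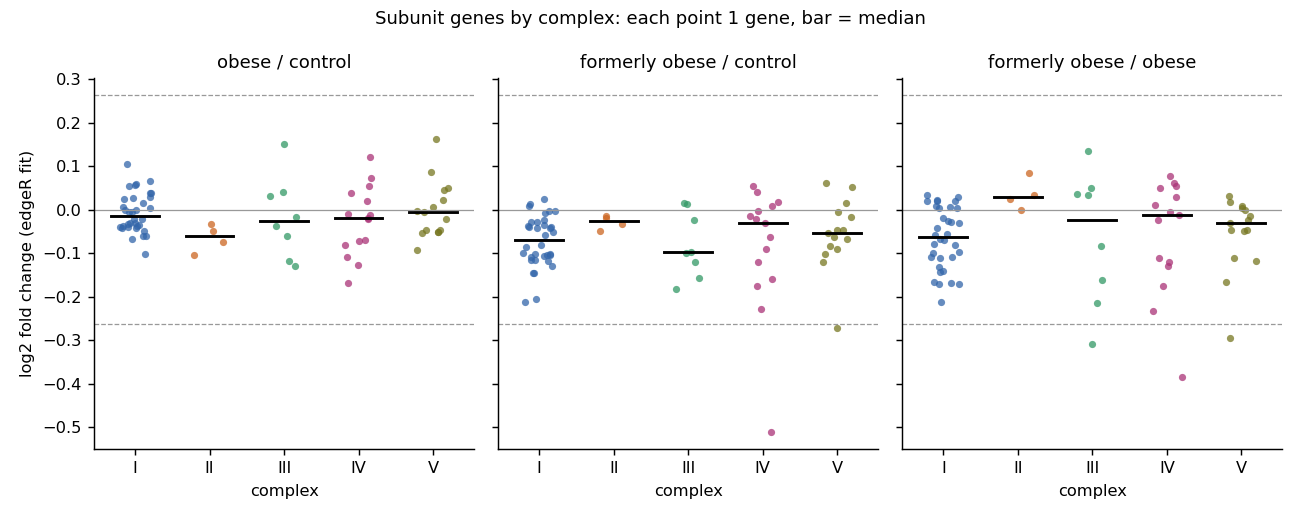
Log2 fold changes of the tested subunit genes (y axis) by complex (x axis) in the 3 comparisons; each point is 1 gene, the bar is the median of the complex and dashed lines mark a 1.2-fold change. Nearly all points lie inside the dashed lines, and the complex I median is -0.01, -0.07 and -0.06 from left to right.

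Comparing formerly obese with obese mice, which leaves the control libraries out of the contrast, the lower genes were more numerous. None of the 78 passed the cutoffs of the study, against 2.65% of all genes, and 0 had an adjusted p under 0.05 (background 0.193%). DESeq2 with the same cutoffs called 0, 0 and 1 of the 78 in the 3 comparisons, in the order given here. It called 266, 522 and 351 of all 12961 genes. At adjusted p under 0.25 there were 8 genes, all lower (10.3% against a background of 7.12%). At unadjusted p under 0.05, 13 were lower (16.7% against 7.05%) and 1 was higher (1.28% against 6.3%). The median log2 fold change was -0.04, with 28 values positive and 50 negative, beside 0.0023 over all genes, and it stayed between -0.05 and -0.01 in all 24 alternatives. The count of 8 at adjusted p under 0.25 fell to 0 without obese replicate 1, 2 or 5 (2.46%, 2.72% and 3.37% of all genes) and to 1 without formerly obese replicate 2 or 5 (7.9% and 1.98%). With the trend of each library on GC content removed, 1 gene had an adjusted p under 0.25 (1.28% against 2.96% of all genes), and with the trend on length removed there were 5 (6.41% against 6.33%). In the fit without the GC trend 59 of the 78 values were negative, with a median of -0.03. In that without the length trend 45 were negative, with a median of -0.01. For 53 genes (67.9%) the 95% interval stayed within 1.2-fold, against 50.5% of all genes, whose median SE was larger.

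The 8 genes were Ndufa7, Ndufs7, Cox8a, Uqcrq, Ndufc1, Ndufa13, Ndufa4 and Ndufc2. Here and below, Uqcrq, Ndufc1, Ndufa13, Ndufc2, Cox7c, Uqcr11 and Cox5b are named after their values were seen. Ndufa7 had a log2 fold change of -0.17 ± 0.05 (adjusted p = 0.153, edgeR). Ndufs7, a core subunit with the iron-sulfur cluster next to the quinone site, had 110, 119, 115, 99.1 and 115 CPM in obese mice and 109, 85.9, 96.1, 102 and 89.2 in formerly obese mice. Only obese replicate 4 came down into the formerly obese range. Its log2 fold change was -0.21 ± 0.07 (adjusted p = 0.169, edgeR). Ndufc1, Ndufa13 and Ndufc2, accessory subunits of complex I, had values of -0.17, -0.17 and -0.14.

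Cox8a, a subunit of complex IV, had 396, 481, 422, 397 and 453 CPM in obese mice and 389, 361, 371, 377 and 331 in formerly obese mice. Each formerly obese mouse was below each obese mouse. The log2 fold change was -0.23 ± 0.08 (adjusted p = 0.203, edgeR). Ndufa4, a protein first assigned to complex I and now to complex IV, had 180, 178, 171, 181 and 175 CPM in obese mice and 157, 165, 168, 156 and 163 in formerly obese mice. These groups did not overlap either, and the log2 fold change was -0.13 ± 0.05 (adjusted p = 0.238, edgeR). Uqcrq, an accessory subunit of complex III, had 171, 181, 175, 164 and 179 CPM in obese mice and 173, 106, 156, 137 and 131 in formerly obese mice. Formerly obese replicate 1 lay among the obese mice. The log2 fold change was -0.31 ± 0.11 (adjusted p = 0.222, edgeR), and 58 exonic bases of Uqcrq overlap Gdf9 on the other strand.

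In every library of formerly obese mice 3 genes were below every obese library, namely Cox8a, Ndufa4 and Cox7c (3.85% against 1.89% of all genes), and 1 gene, Sdhc, was above (1.28% against 1.49%). Cox7c had 47.0, 48.2, 46.1, 45.8 and 47.0 CPM in obese and 45.5, 45.6, 40.9, 43.5 and 41.2 in formerly obese mice, a log2 difference of -0.11 ± 0.08 (adjusted p = 0.567, edgeR). Sdhc had 283, 276, 298, 284 and 294 CPM in formerly obese mice, all above the obese values given earlier, with a log2 fold change of 0.08 ± 0.05 (adjusted p = 0.467, edgeR). None of the 78 tested genes was separated in this way between obese and control mice (background 1.26% lower and 1.21% higher) or between formerly obese and control mice (1.87% lower and 1.75% higher). The gene with an unadjusted p under 0.05 in the positive direction was Uqcrb, an accessory subunit of complex III. It had 68.9, 75.2, 68.4, 74.7 and 75.3 CPM in obese mice and 84.5, 76.9, 84.3, 81.3 and 70.9 in formerly obese mice, a log2 fold change of 0.13 ± 0.06 (adjusted p = 0.285, edgeR), and 74.3% of its windows were repeated elsewhere.

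**Figure D4:**
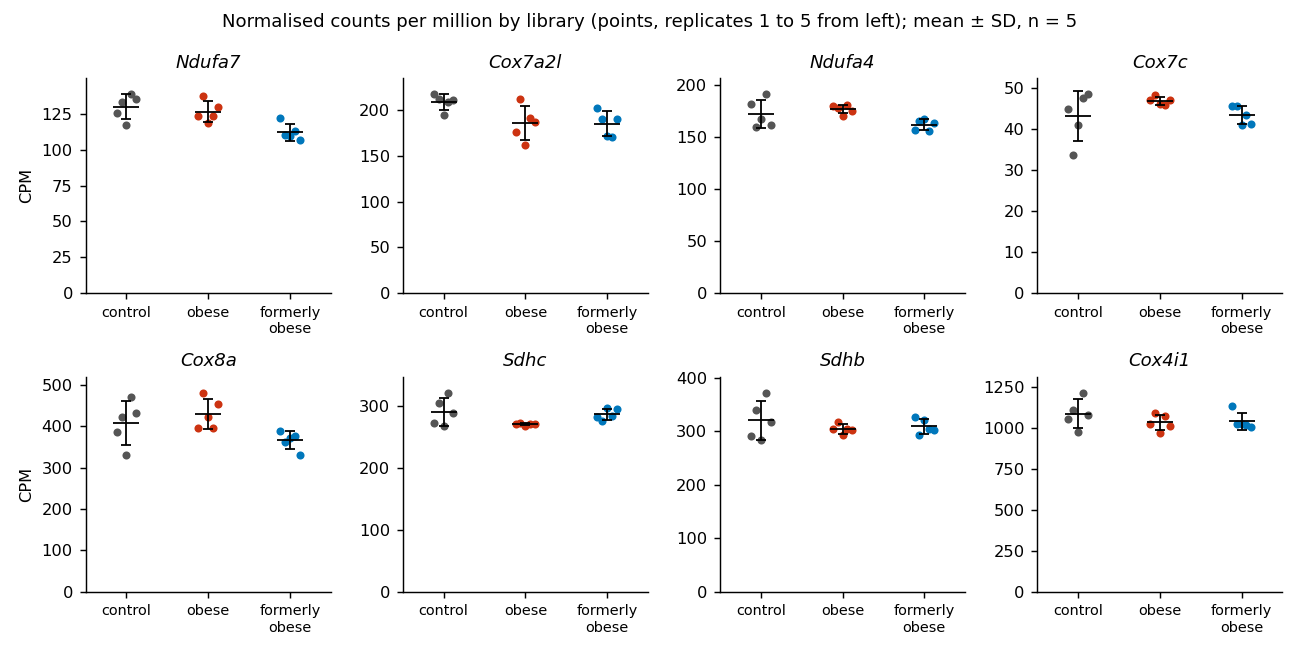
CPM of 8 subunit genes (y axes, each starting at 0) in the control, obese and formerly obese libraries (x axis); points are replicates 1 to 5 from left to right, with mean ± SD (n = 5). Cox8a, Ndufa4 and Cox7c do not overlap between obese and formerly obese mice, and obese Sdhc values span 268 to 272.

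Within the 78 genes, the values of this comparison went along with base composition and length. The log2 fold change of formerly obese against obese mice had a Spearman correlation of -0.38 with transcript GC content and of 0.31 with transcript length. Against control mice the correlations of the formerly obese values were -0.39 and 0.15, and those of the obese values 0.12 and -0.18. These run across genes of the same libraries, which are not independent, and carry no test. The 39 genes shorter than the median had a median log2 fold change of -0.10, and the 39 others of -0.0003. The 39 genes with GC content above the median had a median of -0.06, and the others of -0.0057. Over all tested genes, the log2 deviation of a library per 10 percentage points of GC was -0.04 ± 0.04 in formerly obese mice, 0.03 ± 0.04 in obese mice and 0.02 ± 0.03 in control mice (SD, n = 5; exact two-sided permutation p = 0.0397 against obese mice and p = 0.0556 against control mice, unadjusted). The part of this trend in the lower values was not tested beyond the fits with the trends removed.

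**Figure D5:**
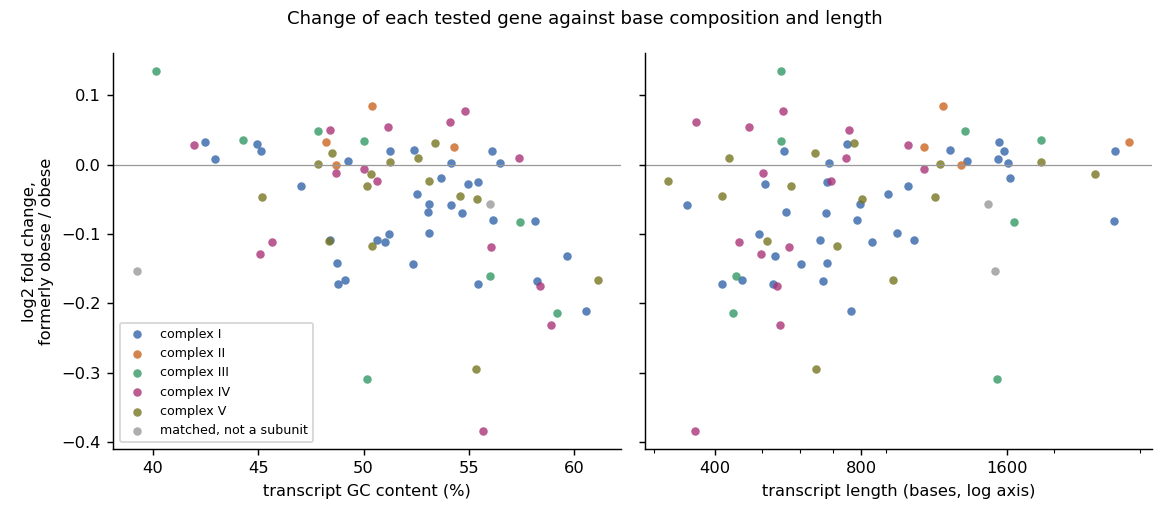
Log2 fold change of formerly obese against obese mice (y axis) for the 78 tested genes, against transcript GC content (left, %) and transcript length (right, bases, log scale), coloured by complex. The values lean lower at higher GC (Spearman -0.38) and higher at greater length (Spearman 0.31).

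Other mitochondrial genes gave a frame for these values. Over all tested genes, the shares at unadjusted p under 0.05 (edgeR) were 5.85% lower and 5.01% higher in obese against control mice. They were 8.63% and 8.1% in formerly obese against control mice, and 7.05% and 6.3% in formerly obese against obese mice. At the cutoffs of the study, 1.58%, 3.72% and 2.65% of all genes were called in the same order. Of 16 tested genes of the citric acid cycle (the subunits of complex II were counted apart), none was called in any comparison, and their medians were -0.06 for obese and -0.03 for formerly obese against control mice and 0.02 between the latter groups, with 0, 1 and 3 genes at unadjusted p under 0.05 (edgeR). Of 41 tested assembly factors, which help to build the complexes, none was called, and the medians were 0.01, 0.0079 and -0.01 in the same order, with 1, 3 and 4 at unadjusted p under 0.05. Of 76 genes of mitochondrial ribosomal proteins, Mrps10 and Mrps12 were called lower in formerly obese than in obese mice (log2 fold changes -0.26 and -0.31), and at unadjusted p under 0.05 14 were lower and 1 was higher there, 10 lower and 0 higher in formerly obese against control mice, and 2 lower and 2 higher in obese against control mice (edgeR). Among 9 other chain genes, such as cytochrome c, Higd1a, a small inner membrane protein known to be induced by low oxygen, was called higher in formerly obese mice, by a log2 fold change of 0.48 ± 0.14 against control (adjusted p = 0.0783, edgeR) and 0.45 ± 0.14 against obese mice (adjusted p = 0.145, edgeR). Among 12 outer membrane and import genes, Tomm20, an import receptor, was called lower in formerly obese than in control mice (-0.33 ± 0.07, adjusted p = 0.0245, edgeR). Of 16 regulators of mitochondrial genes, such as the coactivator Ppargc1a and the mitochondrial DNA factor Tfam, none was called, and 2, 1 and 3 had an unadjusted p under 0.05. The 84 tested cytosolic ribosomal protein genes had a median of -0.13 in obese and -0.14 in formerly obese against control mice, with 31 lower at unadjusted p under 0.05 in each (edgeR) and 2 and 0 higher. Called in obese mice were Rpl23a (1.32), Rpl23 (-0.40) and Rpl6 (-0.27), and in formerly obese mice Rplp1 (-0.29), Rplp2 (-0.45), Rps10 (-0.38), Rps21 (-0.31) and Rps4l (-0.50), as log2 fold changes against control. Between formerly obese and obese mice Rplp1 (-0.30), Rps4l (-0.65) and Rps12 (0.28) were called. Genes of this family have many near-identical copies, and their values are uncertain. Without control replicate 4 the medians against control mice, for obese and then formerly obese mice, were -0.04 and 0.0070 for the citric acid cycle, 0.05 and 0.04 for assembly factors, 0.05 and 0.02 for mitochondrial and -0.12 and -0.11 for cytosolic ribosomal proteins, and Higd1a and Tomm20 were called in formerly obese mice there too.

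Markers of absorptive colonocytes differed between the groups beside the chain. All 7 listed markers, among them Slc26a3 and Car4, had at least 2223 counts in every library. Their summed level spanned 6167 to 11996 CPM in the controls, 6961 to 11516 in the obese and 9219 to 14795 in the formerly obese libraries (exact two-sided permutation p = 0.0317 for formerly obese against each other group, adjusted p = 0.190 over 30 marker tests). The highest control value was that of control replicate 4, and the other control libraries spanned 6167 to 7736 CPM. In formerly obese mice 5 of the 7 were called higher than in control mice, against 3.72% of all genes called. They were Car4 (log2 fold change 0.34), Ceacam20 (0.34), Krt20 (0.55), Saa1 (0.31) and Slc26a3 (0.41). Car4 (0.37) and Slc26a3 (0.62) were called higher than in obese mice, against 2.65% of all genes called. Without control replicate 4, 6 of the 7 were called higher in formerly obese than in control mice (660 of all 13020 genes called). In obese mice 1, Krt20 (0.38), was called higher there (323 of 13020). Markers of small intestinal enterocytes were called as well. Their summed level was 708 to 1070 CPM in control, 909 to 1232 in obese and 1115 to 1388 in formerly obese libraries, so that control and formerly obese mice did not overlap (exact two-sided permutation p = 0.00794, adjusted p = 0.159 over the same tests). Control replicate 4 held the highest control value here too. Of 5 tested, Alpi (0.63), Apob (0.43), Fabp2 (0.60) and Sis (0.71) were called higher in formerly obese mice and Alpi (0.65) and Apob (0.45) in obese mice than in control mice, while Apoa4 had 0 to 4 counts and Lct 0 to 8. Over all genes 3.72% and 1.58% were called in these comparisons. Without control replicate 4, 4 and 2 of the 5 were called higher in formerly obese and in obese mice. Of 5 tested enteroendocrine markers 1, the hormone Pyy, was called lower in formerly obese than in obese mice (-0.35). Over the 5 the median there was -0.0021, with 2 values positive and 3 negative. Their summed level was 158 to 337 CPM in formerly obese and 178 to 332 in obese libraries. Of 6 fat cell markers, Plin1, Lep and Ucp1 were at 0 in every library, Adipoq had at most 2 counts and Fabp4 at most 6. Cidec, a lipid droplet protein, had 43 to 207 counts and was called higher in formerly obese than in control mice (0.93 ± 0.27, adjusted p = 0.0848, edgeR). The summed level of the fat cell list was 2.88 to 5.48 CPM in control, 3.67 to 7.49 in obese and 4.89 to 12.1 in formerly obese libraries. The part of cell composition in the subunit values was not tested, and in bulk tissue fewer cells of a type and less RNA per cell cannot be told apart.

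DNA methylation near these genes was read from the study's list of 8199 differentially methylated regions between obese and control mice (mm10), of which 4123 were more and 4076 less methylated in obese mice. Within 10 kb of the gene, 9 of the 84 had such a region, 7 of them with higher and 2 with lower methylation. Such a region lay near 8 of the 78 tested genes (10.3%), against 20.6% of all tested genes, whose median span was 21.3 kb beside 6.98 kb here. A region lay over the gene at Cox4i1, the main subunit 4 of complex IV, with higher methylation at chromosome 8, 120670037 to 120670206, and at Uqcrh, with lower methylation at chromosome 4, 116071424 to 116071432. In obese against control mice Cox4i1 had a log2 fold change of -0.07 ± 0.06 (adjusted p = 0.69, edgeR) from 1025, 1089, 968, 1070 and 1014 CPM against 1055, 1110, 975, 1215 and 1079. The nearest region before a start was that of Atp5g2, at chromosome 15, 102671779 to 102671796, centred 0.74 kb upstream with higher methylation, and its counts are too few and too repeated to read a change. The list gives no value per mouse, so the size of these methylation differences is not given here.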

How the data were processed

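Raw counts per gene were deposited by the authors, 1 column per mouse. Per the study's methods, paired 50-base reads of a stranded mRNA library were mapped to mm10 with TopHat2 2.0.4 and counted with HTSeq; the strand mode is not given in the sources used here. Tables of the authors' own DESeq2 comparisons (fold changes and p-values) and the methylation fractions of amplicons were not used. The list of differentially methylated regions was made with Bismark and a Rao-Scott test.

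Counts were fitted with edgeR 4.0.16 (R 4.3.3) over all 15 libraries, with filterByExpr, TMM scaling, the quasi-likelihood test and the group as the only term. Adjusted p-values (Benjamini-Hochberg) run over all 12961 tested genes. Intervals at 95% and SE come from the fit, log2 CPM used a prior count of 2, and CPM used TMM-scaled totals. The limit of 3 counts for a gene at 0 covers counting error only. The cutoffs of the study were a fold change over 1.2, p under 0.01 and adjusted p under 0.25. On simulated data with 12890 genes, patterned on these libraries, 191 of 200 changed genes were called, with 37 false calls. When nothing was changed, 0 genes were called. Recovery of changes as small as those of the subunit genes was not tested.

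Transcript length, GC content and 32-base windows were read from the RefSeq annotation and genome of GRCm38.p6. Groups and replicate numbers came from the labels, which name mice but no batch. Genes and lists were chosen with earlier results of these data known. Named are called genes, up to 3 genes of smallest p in each direction per comparison, the highest gene of each complex and paralogs with tissue-restricted forms. Also named are complex II, 5 genes the study names in older mice, the matched genes that are no subunits, and genes of the other lists where called with all libraries. Exact permutation tests were two-sided. Alternatives were DESeq2 1.42.0, other scalings and filters, compared groups only, a replicate block, removal of length or GC trends, leaving out each library, and other call rules.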

Additional observations from a re-analysis of the deposited data

Results flagged for a closer look

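In 8 of 117 groups of 5 libraries examined, a single library lay farther from the rest than Dixon's test allows at the 95% level, where chance flags about 1 in 20 groups. These groups did not cover all 78 tested genes, so the list is not complete. Uqcrfs1, which is not listed, had 410 CPM in control replicate 4 and 323 to 340 in the other control libraries. The gap to the nearest library, as a share of the group's range, was 0.728 for Atp5g1 and 0.725 for Sdhd, both high in control replicate 4 (93.7 CPM beside a group median of 66.3, and 492 beside 426). It was 0.836 for Atp5b, high in formerly obese replicate 3 (2814 CPM, median 2588), and 0.831 for Cox4i1, high in formerly obese replicate 1 (1133 CPM, median 1021). Among obese mice it was 0.784 for Atp5g2, high in replicate 4 (3.49 CPM, median 1.64), 0.767 for Ndufb11, high in replicate 2 (124 CPM, median 117), 0.796 for Ndufa8, low in replicate 3 (130 CPM, median 138), and 0.747 for Atp5sl, low in replicate 3 (53.4 CPM, median 63.4).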

How the results depend on the processing

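None of the 78 genes passed the study's cutoffs, and the count stayed at 0 in every alternative for obese against control mice. For formerly obese against control mice the count was 1 (Cox5b, lower) without formerly obese replicate 5, beside 481 of all 13008 genes. Leaving out 1 library thus gave 0 to 1. The count was 1 at adjusted p under 0.05 and 3 at adjusted p under 0.25. Between formerly obese and obese mice the count was 1 with DESeq2's test (351 of all 12961 genes) and 1 with the compared groups only (353 of 12786). It was 8 at adjusted p under 0.25. Leaving out 1 library there gave 0 to 2. The count was 1 without control replicate 4 (372 of all 13020 genes) or without formerly obese replicate 3 (309 of 13013). It was 2 without formerly obese replicate 1 (383 of 13010). These calls were Uqcrq each time, with Uqcr11 as the other in the last case, and all were lower. The cause was not tested. Medians moved by less than the SD between libraries (0.07) in every alternative. That SD is larger than the size of each median with all libraries (-0.02, -0.06 and -0.04), so this does not show stable medians. Leaving out 1 library gave -0.06 to 0.03 for obese against control, -0.09 to -0.0096 for formerly obese against control and -0.05 to -0.03 for formerly obese against obese mice, and only the first turned positive, without control replicate 4. At adjusted p under 0.25, formerly obese against control mice had 3 genes with all libraries, 19 without control replicate 3 (14.7% of all genes) and 8 without formerly obese replicate 1 (12.1%). Formerly obese against obese mice had 8 with all libraries, 14 without control replicate 4 (10.3% of all genes), 0 without obese replicate 1, 2 or 5 (2.46% to 3.37%) and 1 without formerly obese replicate 2 or 5 (7.9% and 1.98%). The former count was also 1 without control replicate 2 or 5 or formerly obese replicate 4 (7.36% to 10% of all genes) and 5 with upper-quartile scaling (14.4%) or the GC trend removed (11.3%). The latter was also 3 or 4 without control replicate 1 or 5, obese replicate 4 or formerly obese replicate 3 or 4 (4.66% to 6.42%), 2 with no filter (3.52%), 4 with the replicate block (6.99%), 15 with the compared groups only (7.81%), 1 with the GC trend removed (2.96%) and 5 with the length trend removed (6.33%). Obese against control mice had 0 with all libraries, and 1 with the replicate block (3.1%) or without control replicate 3 or 4 or obese replicate 2 (2.6% to 4.88%). With a replicate block the counts of calls were 0, 0 and 0 and the medians -0.02, -0.05 and -0.04. Same-numbered libraries correlated at -0.23 to 0.33 in their deviations. These few libraries cannot settle whether equal numbers pair the mice, and the main fit treated the mice as unpaired. Genes under about 30 counts per library, such as Atp5g2, Cox6b2 and Cox8b, had SE of 0.25 to 0.42 on the log2 scale and limit what depth can show.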
